A study of Mus musculus with 31 samples.

Results

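The genes described here encode proteins of inflammatory and necroptotic cell death, and their RNA was measured in mouse microglia and hippocampus. Cell death itself was not measured in these data. The 10 members were chosen by name: the nucleic acid sensor Zbp1, the kinases Ripk1 and Ripk3, the pseudokinase Mlkl and the protease Casp8 on the necroptosis side, and the sensor Nlrp3, the adaptor Pycard, the proteases Casp1 and Casp4 and the pore protein Gsdmd on the inflammasome side. They are 10 of 54532 genes in the microglial count table and 10 of 48795 in the hippocampal one, and all 10 were found in both. No measured value entered their choice, although earlier results of these data were known.

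Necroptosis is a lytic form of death in which Ripk3, activated by Ripk1 or by Zbp1, phosphorylates Mlkl, which then permeabilises the plasma membrane. Casp8 holds this route in check by cleaving the kinases. In an inflammasome a sensor such as Nlrp3 assembles the adaptor Pycard into a platform that activates Casp1, which matures interleukin-1β and interleukin-18 and cleaves Gsdmd into a membrane pore, while Casp4 (the mouse gene is also called caspase-11) binds bacterial lipopolysaccharide directly. Several of these genes are known targets of type I interferon, and microglia are the brain cells in which inflammasomes have been studied most.

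The microglial data are 18 libraries of primary microglia grown from the cortices of mouse pups at postnatal day 1 to 3. Wildtype (WT, Cgas+/+) and cGAS KO (Cgas-/-) cells, which lack the cytosolic DNA sensor cGAS, were left with vehicle, given tau fibrils at 2 µg/ml or given herring testis DNA (HT-DNA), a cGAS ligand, at 1 µg/ml, and were lysed 6 h after stimulation, with 3 libraries per group. The hippocampal data are whole hippocampi of mice aged 8 to 9 months: 7 non-transgenic mice (Ntg) and 6 P301S mice of the PS19 line, with both sexes in each group. In this line the mouse prion promoter drives human tau carrying the P301S mutation, chiefly in neurons. The labels give no Cgas genotype for these mice, although their sample names contain cGAS. The study crossed P301S mice with the Cgas-/- line, and whether these mice came from that cross is not given in the sources used here. Cgas RNA lay at 0.727 to 1.37 CPM in the Ntg and 0.947 to 1.65 CPM in the P301S hippocampi. All libraries were 3′ tag libraries. Levels are compared here for a gene between groups and not between genes.

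Libraries held 17037459 to 25174764 counts in microglia and 25953296 to 35779977 counts in hippocampus. Levels are CPM, the counts of a gene normalized to a common library size scaled by the trimmed mean of M values. A gene was called where the Benjamini-Hochberg adjusted p of edgeR's quasi-likelihood test was under 0.05, with no minimum fold, and errors are standard errors (SE) of log2 fold changes or standard deviations (SD). The study describes the microglial libraries of a group as biologically independent samples. Whether they came from separate culture preparations is not given in the sources used here, so p-values measure the spread between these libraries, and genotype and culture preparation cannot be told apart. Cgas RNA was 18.8 to 44.3 CPM in the WT and 3.76 to 7.45 CPM in the KO libraries, and the deleted part of the gene is not given in the sources used here. Mapt was 519 to 642 CPM in the Ntg and 858 to 1125 CPM in the P301S hippocampi, with no overlap. Pan-microglial markers summed to 11096 to 12834 CPM in the WT libraries and 7969 to 8801 CPM in the KO libraries, and those of neurons to at most 2.18 CPM in either. T cell markers Cd3e, Cd3d, Cd8a and Trac were at or under 3 counts in every microglial library.

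The sequences around the start sites of 8 of the 10 members were found in the RefSeq table (GRCm38.p6, 250 bases before to 50 after the start); Zbp1 and Gsdmd were not matched. Both strands of all 32851 windows of this kind were searched for the core of the interferon-stimulated response element, GAAANNGAAA, and for the core of the gamma-activated site, TTCNNNGAA. The first was held by 3.44% and the second by 8.30% of all windows. Among the members, the letters of either motif occurred only in the second of the 2 windows of Ripk1, which held the first motif once and the second motif at 2 positions, 1 of them overlapping the first motif. The windows of Mlkl, Casp1 and Casp4 are shown as examples of members that rose under both treatments in Cgas+/+ cells (those of Casp8 and Nlrp3, which rose too, are not shown), and that of Ripk1 because it holds the motifs, which are in capitals. Sequences are 5′ to 3′ on the strand of the gene.
Mlkl, chr8:111338156-111338455, minus strand: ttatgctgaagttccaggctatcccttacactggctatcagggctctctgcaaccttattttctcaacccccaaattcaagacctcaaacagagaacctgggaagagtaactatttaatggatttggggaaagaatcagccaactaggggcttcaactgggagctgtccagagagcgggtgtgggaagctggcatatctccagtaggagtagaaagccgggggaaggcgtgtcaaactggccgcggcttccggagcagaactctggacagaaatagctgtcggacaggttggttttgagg
Casp1, chr9:5298267-5298566, plus strand: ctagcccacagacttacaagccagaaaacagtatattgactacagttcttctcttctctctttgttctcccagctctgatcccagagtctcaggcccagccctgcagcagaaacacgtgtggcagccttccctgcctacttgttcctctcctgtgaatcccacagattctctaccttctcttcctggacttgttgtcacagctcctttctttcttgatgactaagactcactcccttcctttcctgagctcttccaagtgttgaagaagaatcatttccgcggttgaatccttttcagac
Casp4, chr9:5308599-5308898, plus strand, first of 2 windows: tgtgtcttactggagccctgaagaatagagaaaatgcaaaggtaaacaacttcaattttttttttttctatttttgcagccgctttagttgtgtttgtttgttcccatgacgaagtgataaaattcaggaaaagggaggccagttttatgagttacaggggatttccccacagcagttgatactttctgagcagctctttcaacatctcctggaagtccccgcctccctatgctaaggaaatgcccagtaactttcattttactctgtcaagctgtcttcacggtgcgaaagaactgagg
Ripk1, chr13:34002624-34002923, plus strand, second of 2 windows: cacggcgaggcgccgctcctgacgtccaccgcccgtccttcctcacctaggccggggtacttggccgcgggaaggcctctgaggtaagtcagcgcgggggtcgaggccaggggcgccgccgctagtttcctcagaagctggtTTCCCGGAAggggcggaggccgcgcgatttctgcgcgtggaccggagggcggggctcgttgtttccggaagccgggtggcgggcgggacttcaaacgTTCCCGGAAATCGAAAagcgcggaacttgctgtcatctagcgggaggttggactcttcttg
A match in such a window describes letters only, and the absence of one says nothing about binding elsewhere.

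The first comparison asked how tau fibrils changed these genes in microglia with cGAS. In Cgas+/+ microglia 7 of the 10 members rose after tau fibrils and none fell, where 15.8% of the 13675 genes tested were called higher and 12.2% lower. Mlkl, Casp4, Zbp1 and Nlrp3 rose more than 2.1-fold, Casp1, Casp8 and Gsdmd between 1.44-fold and 1.84-fold. Ripk1, Ripk3 and Pycard did not pass the test. The median log2 fold change was 0.72 over the members and -0.01 over all genes tested. The same question was asked of HT-DNA, which cGAS binds directly. After HT-DNA 8 members rose and Pycard fell, where 22.8% of genes were called higher and 24.7% lower, and the members' median was 1.103 against -0.03 over all genes. The 2 treatments share the vehicle libraries, so the 2 sets of values are not independent of each other. Markers of other cells also moved with treatment in Cgas+/+ cells. Endothelial markers summed to 106 to 125 CPM with vehicle, 142 to 177 CPM after tau and 379.6 to 391 CPM after HT-DNA, with Cldn5 at or under 3 counts in the vehicle and HT-DNA libraries, and markers of oligodendrocytes and their precursors to 124 to 132, 130 to 153 and 203 to 225 CPM. Their part in the members' values was not tested.

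**Figure D1:**
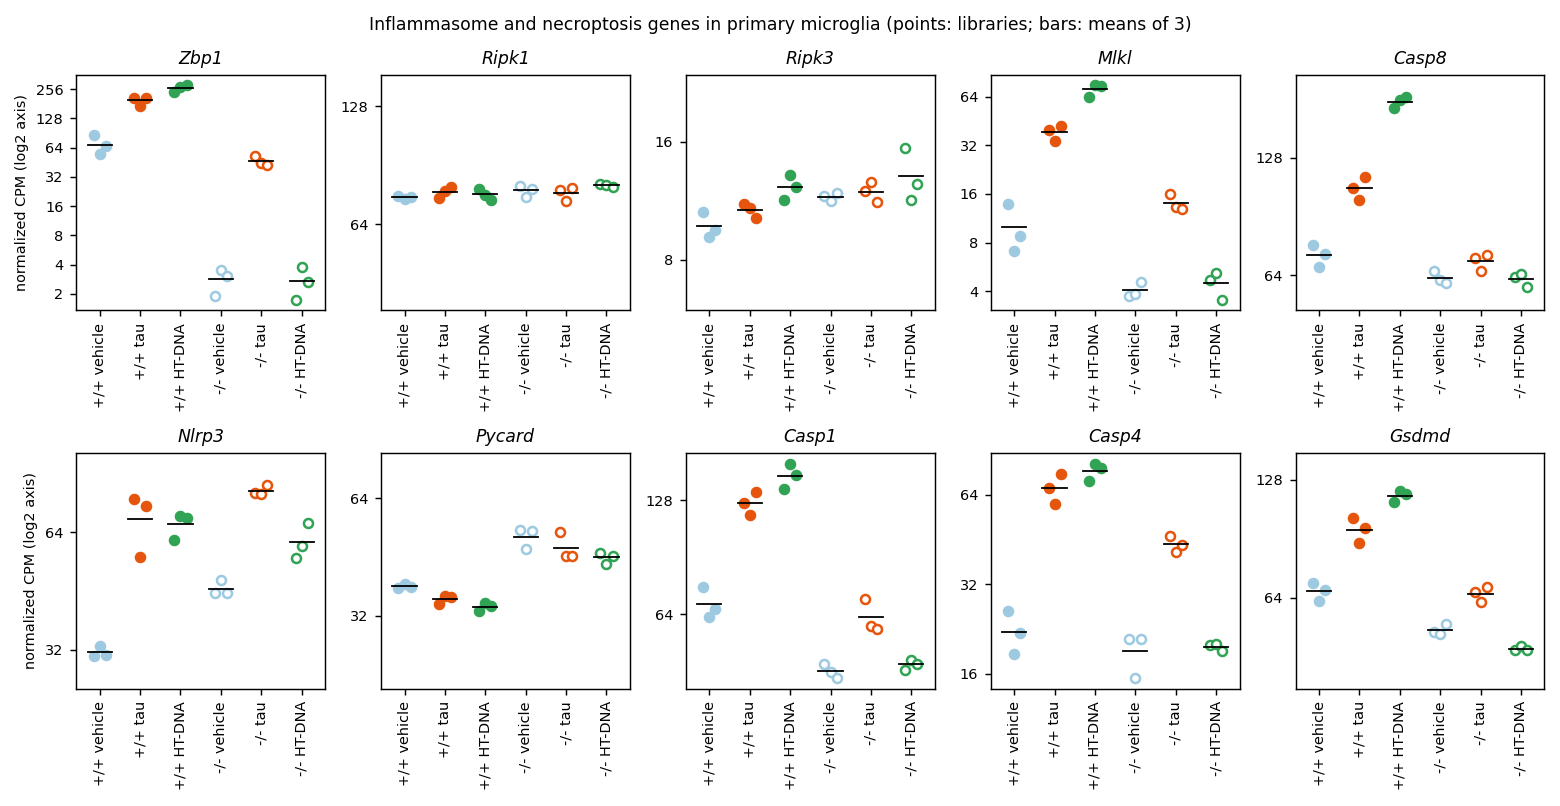
Normalized CPM (log2 axis) of the 10 members in each of the 18 microglial libraries; filled points are Cgas+/+, open points Cgas-/-, and bars are means of 3 libraries. Zbp1 stood at 54.7 to 85.5 CPM in the Cgas+/+ vehicle libraries and at 1.90 to 3.54 CPM in the Cgas-/- vehicle libraries, while Ripk1 stayed between 73.2 and 81.2 CPM in all 18.

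Zbp1 (chr2:173206612-173218923, minus strand), the sensor of left-handed Z-form nucleic acids, stood at 85.5, 54.7 and 66.2 CPM in the 3 Cgas+/+ vehicle libraries, 207, 172 and 209 CPM after tau fibrils and 238, 269.6 and 281 CPM after HT-DNA. All 6 treated libraries lay above all 3 vehicle libraries, and the HT-DNA libraries lay above the tau libraries. The rise was 2.85-fold after tau (log2 1.51, SE 0.11, edgeR adjusted p = 1.46e-11) and 3.82-fold after HT-DNA (log2 1.93, SE 0.11, edgeR adjusted p = 2.21e-14). Tau libraries were lower than HT-DNA libraries by edgeR (log2 -0.42, SE 0.11, adjusted p = 0.00213), and DESeq2 did not call this difference (adjusted p = 0.102).

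Mlkl (chr8:111311797-111338177, minus strand), the executioner of necroptosis, moved from 13.9, 7.14 and 8.74 CPM with vehicle to 39.7, 33.9 and 42.3 CPM after tau and 63.2, 75.2 and 74.1 CPM after HT-DNA. The 3 groups did not overlap. Its rise was 3.87-fold after tau (log2 1.95, SE 0.14) and 7.11-fold after HT-DNA (log2 2.83, SE 0.14), and the tau libraries were lower than the HT-DNA libraries by 0.88 on the log2 scale (log2 -0.88, SE 0.12, edgeR adjusted p = 1.13e-06).

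The kinases between sensor and executioner moved far less. Ripk1 (chr13:34002363-34037147, plus strand), the scaffold kinase of the TNF receptor complex, had log2 fold changes of 0.04 (SE 0.05) after tau and 0.02 (SE 0.05) after HT-DNA. Its 9 Cgas+/+ libraries lay between 73.9 and 79.7 CPM. Ripk3 (chr14:55784995-55788865, minus strand), which phosphorylates Mlkl, was 9.13 to 10.6 CPM with vehicle, 10.2 to 11.1 CPM after tau and 11.4 to 13.2 CPM after HT-DNA. It rose after HT-DNA (log2 0.33, SE 0.11, edgeR adjusted p = 0.0136) and not after tau (log2 0.13, SE 0.11, edgeR adjusted p = 0.415), and the 2 treatments did not differ beyond the test (log2 -0.20, SE 0.11, edgeR adjusted p = 0.172). The HT-DNA call was lost without vehicle replicate 2 (adjusted p = 0.0690) or without HT-DNA replicate 2 (adjusted p = 0.0726).

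Casp8 (chr1:58795374-58847503, plus strand), the brake on necroptosis and initiator of apoptosis, rose from 76.5, 67.4 and 72.6 CPM to 107, 99.8 and 114 CPM after tau and 171, 179.8 and 182 CPM after HT-DNA. The 3 groups did not overlap. The log2 fold change was 0.57 (SE 0.05) after tau and 1.30 (SE 0.05) after HT-DNA, a difference between treatments of -0.73 (SE 0.05, edgeR adjusted p = 8.53e-12).

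Nlrp3 (chr11:59541568-59566956, plus strand), the inflammasome sensor of membrane damage and ion flux, was 30.8, 32.7 and 31.1 CPM with vehicle, 77.6, 55.4 and 74.6 CPM after tau and 61, 70.5 and 69.7 CPM after HT-DNA. The treated groups overlapped each other and lay above every vehicle library. Both rises were close to 2-fold, 2.19-fold after tau (log2 1.13, SE 0.09) and 2.12-fold after HT-DNA (log2 1.09, SE 0.09), and they differed by 0.04 (SE 0.09, edgeR adjusted p = 0.751). Without tau replicate 2, the lowest of the 3, the difference was 0.18 (edgeR adjusted p = 0.0493).

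Pycard (chr7:127989708-127993867, minus strand), the adaptor also called ASC, did not rise in any comparison with vehicle. It was 37.6 to 38.7 CPM with vehicle, 34.4 to 36.1 CPM after tau and 32.9 to 34.5 CPM after HT-DNA. It fell slightly after HT-DNA (log2 -0.17, SE 0.06, edgeR adjusted p = 0.0229), a call that was lost with DESeq2 (adjusted p = 0.115), with the RLE scaling (adjusted p = 0.0653), without vehicle replicate 2 (adjusted p = 0.0667) and without HT-DNA replicate 1 (adjusted p = 0.0791).

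The proteases and the pore protein rose under both treatments. Casp1 (chr9:5298517-5307265) and Casp4 (chr9:5308828-5336783) lie on the plus strand, 1562 bases apart. Casp1 rose from 75.7, 63.1 and 66.1 CPM to 126, 117 and 134 CPM after tau (log2 0.88, SE 0.07) and 137, 159.7 and 149 CPM after HT-DNA (log2 1.12, SE 0.07). Casp4 rose from 26.01, 18.6 and 21.9 CPM to 67.4, 59.7 and 75.2 CPM after tau (log2 1.603, SE 0.10) and 71.4, 81.6 and 78.9 CPM after HT-DNA (log2 1.80, SE 0.10). For both genes the tau and HT-DNA libraries lay above all vehicle libraries. Gsdmd (chr15:75862327-75867408, plus strand), the pore that Casp1 and Casp4 open by cleavage, rose from 69.7, 62.6 and 67.1 CPM to 102, 88.3 and 96.2 CPM after tau (log2 0.52, SE 0.05) and 113, 119.6 and 118 CPM after HT-DNA (log2 0.81, SE 0.05).

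Compared directly in Cgas+/+ cells, 5 members were lower after tau fibrils than after HT-DNA and none was higher, where 17.8% of genes were called lower and 17.1% higher. These were Mlkl, Casp8, Zbp1, Gsdmd (log2 -0.29, SE 0.05, edgeR adjusted p = 5.14e-05) and Casp1 (log2 -0.24, SE 0.07, edgeR adjusted p = 0.00517). Casp1 lost its call without HT-DNA replicate 2 (adjusted p = 0.0594) or tau replicate 2 (adjusted p = 0.0502). Casp4 differed by -0.20 (SE 0.09, edgeR adjusted p = 0.0874), and it passed with the RLE scaling (adjusted p = 0.0485), without the filter on low counts (adjusted p = 0.00766), when the other groups were left out of the fit (adjusted p = 0.0278) and without tau replicate 3 (adjusted p = 0.0258).

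Without cGAS the response to HT-DNA was nearly gone for these genes, and the response to tau fibrils was not. In Cgas-/- microglia 6 members rose after tau fibrils and none fell, where 11.2% of genes were called higher and 5.48% lower. After HT-DNA 1 member rose and none fell, where 1.04% of genes were called higher and 0.278% lower. The 1 member was Nlrp3. At an unadjusted p under 0.05 there were 3 members after HT-DNA, where 12.3% of genes passed in either direction. Of these Nlrp3 was higher, and Pycard (log2 -0.18) and Gsdmd (log2 -0.16) were lower. DESeq2 called 1 member higher, where it called 1.83% of genes higher. In Cgas-/- cells endothelial markers summed to 27.5 to 32.6 CPM with vehicle, 30.2 to 34.1 CPM after tau and 33.3 to 37.3 CPM after HT-DNA, and markers of oligodendrocytes and their precursors to 71.4 to 76.2, 79.0 to 82.7 and 70.9 to 72.8 CPM. Of these markers Cldn5, Pecam1 and Mog were at or under 3 counts in every Cgas-/- library, and Cdh5 in the vehicle libraries.

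**Figure D2:**
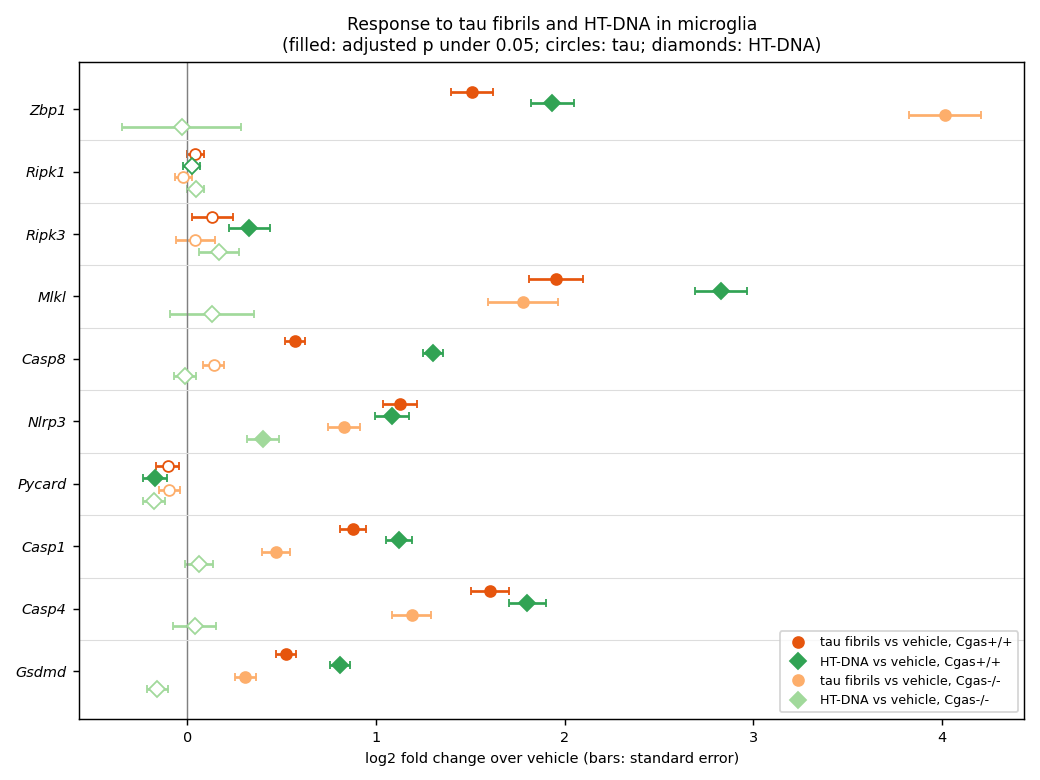
Log2 fold change over vehicle of each member after tau fibrils (circles) and HT-DNA (diamonds) in Cgas+/+ (dark) and Cgas-/- (light) microglia; bars are standard errors and filled symbols have an adjusted p under 0.05. Zbp1 after tau lies at 4.02 in Cgas-/- and at 1.51 in Cgas+/+ cells, and the HT-DNA values of Cgas-/- cells lie between -0.18 and 0.40.

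Zbp1 was low in Cgas-/- cells and moved most. It stood at 1.90, 3.54 and 3.08 CPM with vehicle (34, 68 and 70 counts), at 1.75, 3.77 and 2.68 CPM after HT-DNA and at 52.9, 44.5 and 42.4 CPM after tau fibrils. The HT-DNA and vehicle libraries overlapped fully, and every tau library lay above all 6 of them. The rise after tau was 16.2-fold (log2 4.02, SE 0.19, edgeR adjusted p = 1.20e-15), and after HT-DNA the log2 fold change was -0.03 (SE 0.32, edgeR adjusted p = 0.981). The tau libraries of Cgas-/- cells still lay below each Cgas+/+ vehicle library, of which the lowest was 54.7 CPM.

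Mlkl rose from 3.74, 3.86 and 4.57 CPM to 16.0, 13.4 and 12.9 CPM after tau (3.43-fold, log2 1.78, SE 0.18, edgeR adjusted p = 1.23e-08). After HT-DNA it was 4.72, 5.18 and 3.55 CPM, on both sides of the vehicle libraries. Casp4 rose from 20.9, 15.5 and 21.0 CPM to 46.6, 41.2 and 43.5 CPM after tau (2.28-fold, log2 1.19, SE 0.10), and was 19.1 to 20.1 CPM after HT-DNA. Casp1 rose 1.38-fold (log2 0.47, SE 0.07) and Gsdmd 1.24-fold (log2 0.31, SE 0.05) after tau. Casp8 moved from 61.2 to 65.7 CPM with vehicle to 65.5 to 72.1 CPM after tau, which did not pass the test (log2 0.14, SE 0.06, edgeR adjusted p = 0.0957) and did so without tau replicate 2 (adjusted p = 0.0473).

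Nlrp3 was the only member called after both treatments in Cgas-/- cells. It was 44.7, 48.2 and 44.7 CPM with vehicle, 54.8, 59.1 and 67.3 CPM after HT-DNA and 80.4, 80.0 and 84.3 CPM after tau. The 3 groups did not overlap. The log2 fold change was 0.83 (SE 0.09, edgeR adjusted p = 1.11e-08) after tau and 0.40 (SE 0.09, edgeR adjusted p = 0.0162) after HT-DNA. The HT-DNA call was lost without vehicle replicate 1 (adjusted p = 0.0904), vehicle replicate 3 (adjusted p = 0.0809) or HT-DNA replicate 3 (adjusted p = 0.145). Ripk1, Ripk3 and Pycard were called after neither treatment, with log2 fold changes of -0.02, 0.04 and -0.10 after tau and 0.04, 0.17 and -0.18 after HT-DNA.

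Whether the response differed between genotypes was tested by the interaction of genotype and treatment. For tau fibrils the response of Zbp1 was larger in Cgas-/- than in Cgas+/+ cells (difference of log2 fold changes 2.51, SE 0.24, edgeR adjusted p = 3.52e-08), and those of Casp8 (-0.43, SE 0.08, edgeR adjusted p = 6.89e-04) and Casp1 (-0.41, SE 0.10, edgeR adjusted p = 0.0115) were smaller. These are 1 member higher and 2 lower, where 3.61% of genes were called higher and 3.31% lower. The larger log2 response of Zbp1 started from a vehicle level 23.9-fold lower and ended at a level 4.21-fold lower than in Cgas+/+ cells. Mlkl responded by log2 1.95 with cGAS and 1.78 without (difference -0.17, SE 0.24, edgeR adjusted p = 0.761). For Nlrp3 (-0.30, adjusted p = 0.166), Casp4 (-0.41, adjusted p = 0.0860) and Gsdmd (-0.22, adjusted p = 0.0904) edgeR made no call, and all 3 passed without Cgas+/+ tau replicate 2, so that 6 members were called. Casp4 also passed without Cgas+/+ vehicle replicate 1 (adjusted p = 0.0111) and without Cgas-/- vehicle replicate 2 (adjusted p = 0.0173).

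For HT-DNA 7 members responded less in Cgas-/- cells and none more, where 16.6% of genes were called lower and 17.4% higher. The differences were -2.70 for Mlkl (SE 0.27), -1.96 for Zbp1 (SE 0.34), -1.76 for Casp4 (SE 0.15), -1.31 for Casp8 (SE 0.08), -1.06 for Casp1 (SE 0.10), -0.97 for Gsdmd (SE 0.08) and -0.69 for Nlrp3 (SE 0.13). The highest edgeR adjusted p among the 7 was 7.95e-05. Ripk1, Ripk3 and Pycard, with little response in either genotype, had differences of 0.02, -0.16 and -0.01.

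The genotypes also differed within each condition. With vehicle 5 members were lower in Cgas-/- cells and 2 higher, where 27.3% of genes were called lower and 24.7% higher. After tau fibrils 6 were lower and 2 higher (26.2% and 25.2% of genes), and after HT-DNA 6 were lower and 1 higher (30.1% and 33.1% of genes). The shares for all genes show how far the libraries of the 2 genotypes stood apart as a whole.

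**Figure D3:**
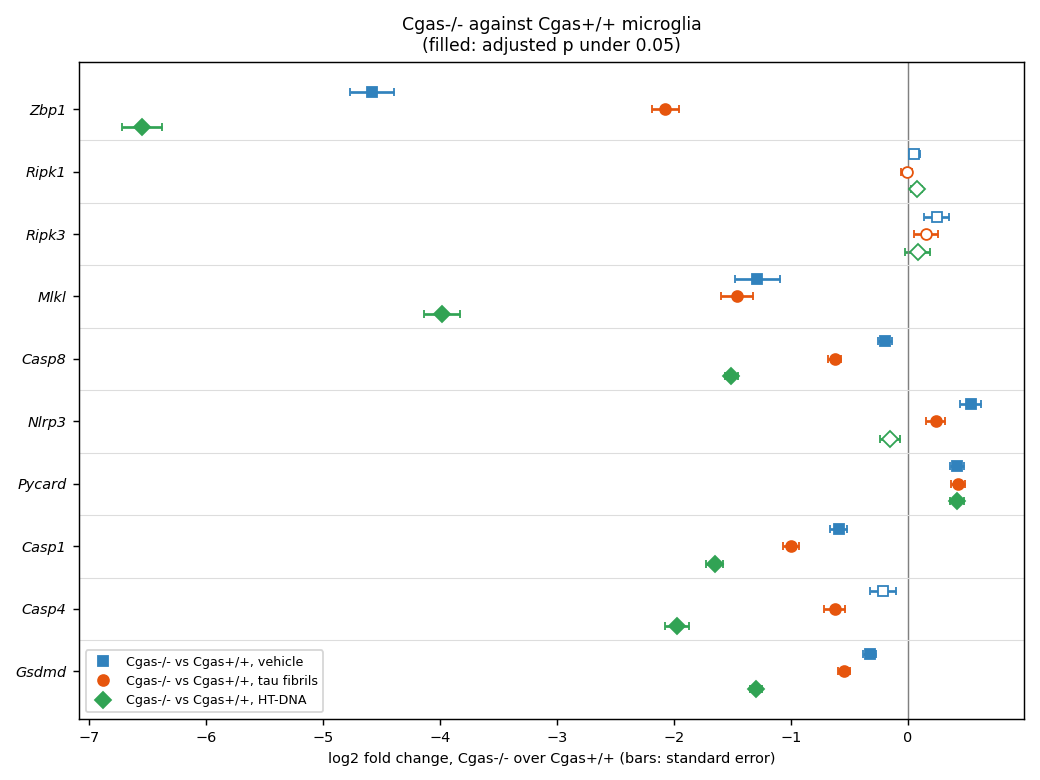
Log2 fold change of each member in Cgas-/- over Cgas+/+ microglia with vehicle (squares), after tau fibrils (circles) and after HT-DNA (diamonds); bars are standard errors and filled symbols have an adjusted p under 0.05. Zbp1 lies at -4.58, -2.07 and -6.54 in the 3 conditions and Pycard at 0.42, 0.43 and 0.42.

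Zbp1 was 23.9-fold lower in Cgas-/- cells with vehicle (log2 -4.58, SE 0.19, edgeR adjusted p = 1.24e-17), 4.21-fold lower after tau (log2 -2.07, SE 0.12) and 93.3-fold lower after HT-DNA (log2 -6.54, SE 0.17). Mlkl was 2.44-fold, 2.75-fold and 15.8-fold lower. Casp1 was lower in all 3 conditions, with log2 fold changes of -0.59, -0.999 and -1.65, and so were Casp8 (-0.19, -0.62 and -1.51) and Gsdmd (-0.33, -0.54 and -1.30). Casp4 did not differ beyond the test with vehicle (log2 -0.21, SE 0.11, edgeR adjusted p = 0.120) and passed without Cgas+/+ vehicle replicate 2 (log2 -0.33, edgeR adjusted p = 0.0147). It was lower after tau (log2 -0.62, SE 0.09) and after HT-DNA (log2 -1.97, SE 0.10).

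Pycard and Nlrp3 went the other way. Pycard was 47.3 to 53.1 CPM in the Cgas-/- and 37.6 to 38.7 CPM in the Cgas+/+ vehicle libraries, and its log2 difference was 0.42 with vehicle (SE 0.06), 0.43 after tau (SE 0.06) and 0.42 after HT-DNA (SE 0.06). Nlrp3 was higher in Cgas-/- cells with vehicle (log2 0.54, SE 0.09, edgeR adjusted p = 1.90e-05) and after tau (log2 0.24, SE 0.08, edgeR adjusted p = 0.0165). After HT-DNA it was -0.15 (SE 0.09, edgeR adjusted p = 0.132), and it was called lower when the other groups were left out of the fit (log2 -0.19, edgeR adjusted p = 0.0148) and without Cgas-/- HT-DNA replicate 3 (log2 -0.23, edgeR adjusted p = 0.0320). The call after tau was lost with DESeq2 (adjusted p = 0.0546), without Cgas+/+ tau replicate 2 (adjusted p = 0.235) and without Cgas-/- tau replicate 3 (adjusted p = 0.0581). Ripk1 and Ripk3 were called in none of the 3 conditions. With vehicle, Ripk3 was called higher in Cgas-/- cells when the other groups were left out of the fit (log2 0.27, edgeR adjusted p = 0.0357) and without Cgas+/+ vehicle replicate 1 (log2 0.31, edgeR adjusted p = 0.0363).

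Marker genes moved with genotype as well. With vehicle, 7 of 9 pan-microglial markers (with 1 higher) and 6 of 7 tested homeostatic microglia markers were lower in Cgas-/- cells, with median log2 fold changes of -0.61 and -0.59. Homeostatic markers summed to 3121 to 3457 CPM in the Cgas+/+ and 2018 to 2525 CPM in the Cgas-/- libraries. Siglech was at or under 3 counts in each of the 3 vehicle libraries of both genotypes and in the Cgas-/- tau libraries. Markers of endothelial cells summed to 106 to 391 CPM in Cgas+/+ and 27.5 to 37.3 CPM in Cgas-/- libraries. Cldn5 was at or under 3 counts in the Cgas+/+ vehicle and HT-DNA libraries and in every Cgas-/- library. Pecam1 was at or under 3 counts in every Cgas-/- library, and Cdh5 in the Cgas-/- vehicle libraries. Markers of neutrophils summed to 85.0 to 112 CPM in Cgas+/+ and 31.2 to 42.8 CPM in Cgas-/- libraries, with S100a9 and Ly6g at or under 3 counts in each. Camp was at or under 3 counts in the libraries of every group but Cgas-/- with tau. The part of these differences in the members' values was not tested.

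Ordered by mean level, Zbp1 ran from Cgas+/+ with HT-DNA (263 ± 22.4 CPM, SD, n = 3) through Cgas+/+ with tau (196 ± 20.5), Cgas+/+ with vehicle (68.8 ± 15.5) and Cgas-/- with tau (46.6 ± 5.55) to Cgas-/- with vehicle (2.84 ± 0.849) and with HT-DNA (2.73 ± 1.01). Only the last 2 overlapped. Nlrp3 ran in another order, with Cgas-/- cells after tau highest (81.6 ± 2.36 CPM, SD, n = 3), then Cgas+/+ with tau (69.2 ± 12.1), Cgas+/+ with HT-DNA (67.1 ± 5.26), Cgas-/- with HT-DNA (60.4 ± 6.33), Cgas-/- with vehicle (45.8 ± 2.003) and Cgas+/+ with vehicle (31.6 ± 1.001). The 3 groups from Cgas+/+ with tau to Cgas-/- with HT-DNA overlapped. Over the 6 group means, each centred on its own average log2 level, the genes closest to Zbp1 of 13675 were Slfn1, BC147527 and Ifi203, with root mean square distances of 0.23, 0.23 and 0.24 log2 units against a range of 6.60 for Zbp1. Those closest to Nlrp3 were Il12rb1, Ralgds and Dcbld2, at 0.11, 0.13 and 0.16 against a range of 1.37.

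The other genes of these pathways were taken from fixed lists. The counts of each list stand beside the shares of all genes called, which in Cgas+/+ cells were 15.8% higher and 12.2% lower after tau and 22.8% higher and 24.7% lower after HT-DNA, and in Cgas-/- cells 11.2% and 5.48% after tau and 1.04% and 0.278% after HT-DNA. Among inflammasome sensors 4 of the 7 tested rose and 1 fell (Nlrp1b, log2 -0.50, SE 0.18, edgeR adjusted p = 0.0385) after tau fibrils in Cgas+/+ cells, and 4 rose after HT-DNA. Aim2, the cytosolic DNA sensor of its own inflammasome, rose from 79.9 ± 12.7 CPM (SD, n = 3) to 128 ± 2.01 after tau (log2 0.68) and 182 ± 8.24 after HT-DNA (log2 1.19). Naip5 and Naip6, which detect bacterial flagellin, rose by log2 0.26 and 0.29 after tau and 0.64 and 0.81 after HT-DNA, and reads of these near-identical paralogs may be split between them. In Cgas-/- cells 5 sensors rose after tau and none after HT-DNA.

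Among the 8 inflammasome partners and inhibitors, the guanylate-binding proteins Gbp2 and Gbp5 had the largest rises. Gbp2 went from 62.8 ± 29.1 CPM (SD, n = 3) to 371 ± 30.1 after tau and 629 ± 44.2 after HT-DNA in Cgas+/+ cells, and from 4.07 ± 0.698 to 71.8 ± 6.39 and 3.97 ± 0.839 in Cgas-/- cells. Gbp5 rose by log2 2.90 (SE 0.20) after tau and 3.64 (SE 0.20) after HT-DNA with cGAS. Without cGAS it rose by log2 5.85 (SE 0.45) after tau, from 6 to 15 counts with vehicle to 767 to 887. Nek7, the kinase that Nlrp3 needs to assemble, rose by log2 0.12 after tau and 0.56 after HT-DNA. In all, 4 of the 8 rose and none fell after tau, and 3 rose and 1 fell after HT-DNA, against 15.8% and 12.2% of all genes after tau and 22.8% and 24.7% after HT-DNA.

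In the list of inflammasome substrates and pore proteins, Il1b and Il18 differed between the 2 treatments in opposite directions. All 5 tested genes of that list rose after tau (15.8% of all genes), and 4 rose and 1 fell after HT-DNA (22.8% and 24.7% of all genes). Il1b, the precursor of interleukin-1β, went from 0.527 ± 0.0386 CPM (SD, n = 3) to 19.4 ± 5.498 after tau and 1.31 ± 0.649 after HT-DNA, and the tau libraries were higher than the HT-DNA libraries by log2 3.89 (SE 0.25, edgeR adjusted p = 6.03e-13). It was near the floor with vehicle (9 to 13 counts) and after HT-DNA (14 to 37 counts). In Cgas-/- cells Il1b went from 1.09 ± 0.373 CPM to 12.4 ± 0.917 after tau and 2.20 ± 0.675 after HT-DNA (tau interaction -1.69, SE 0.47, edgeR adjusted p = 0.0246). Il18, the precursor of interleukin-18, went from 4.81 ± 0.873 CPM to 12.1 ± 1.06 after tau and 27.0 ± 2.38 after HT-DNA, and was lower after tau than after HT-DNA (log2 -1.16, SE 0.11, edgeR adjusted p = 9.87e-10). Ninj1, which ruptures the membrane of dying cells, rose by log2 0.61 after tau and 0.15 after HT-DNA, and by 0.77 after tau in Cgas-/- cells.

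In the TNF receptor complex, 12 of 19 genes rose and 1 fell after tau (15.8% and 12.2% of all genes), and 13 rose and none fell after HT-DNA (22.8% and 24.7% of all genes). Tnf rose from 21.8 ± 2.11 CPM (SD, n = 3) to 93.0 ± 15.2 after tau and 104 ± 5.91 after HT-DNA. In Cgas-/- cells Tnf rose from 31.4 ± 3.54 to 50.8 ± 5.46 after tau and 45.7 ± 4.62 after HT-DNA, and it was the 1 gene of the list called there after HT-DNA (log2 0.54, SE 0.10, edgeR adjusted p = 0.00538). Cflar, which restrains Casp8, rose by log2 0.84 and 1.07, and Tnfaip3, the ubiquitin editor A20, by 0.74 and 1.20 after tau and HT-DNA in Cgas+/+ cells. In Cgas-/- cells 10 of the 19 rose and 1 fell after tau (11.2% and 5.48% of all genes).

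Among the other inputs to necroptosis and death receptors, 5 of 9 tested genes rose and none fell after tau (15.8% and 12.2% of all genes), and 5 rose and 1 fell after HT-DNA (22.8% and 24.7% of all genes). Tnfsf10 (TRAIL) rose by log2 2.23 and 3.29. Adar, which edits the double-stranded RNA that Zbp1 can sense, rose by log2 0.62 and 0.82 in Cgas+/+ cells, and by 1.395 after tau in Cgas-/- cells. The transcription factor Irf1 rose by log2 1.08 and 1.36.

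The hippocampal comparison asked whether the same genes differ in tissue with tau pathology. In a whole hippocampus, more cells of a type and more RNA per cell cannot be told apart. Of the 10 members, 8 passed the filter on low counts among 16453 genes, and 1, Casp4, was higher in P301S mice while none was lower, where 1.39% of genes were called higher and 0.122% lower. At an unadjusted p under 0.05 there were 5 members, all higher, where 9.79% of genes were higher at that p. DESeq2 called 4 members higher (Zbp1, Casp4, Pycard and Nlrp3), where it called 3.84% of genes higher. In data simulated from the hippocampal counts, 23.5% of DESeq2 calls were false, against 8.29% of edgeR calls. The simulated counts used edgeR's own estimates of spread, which can favour edgeR. They held only genes that passed the filter, and so not Zbp1. The simulation therefore cannot decide whether the DESeq2 calls of these members were false. The median log2 fold change of the 8 was 0.88, against 0.00132 over all genes tested. Zbp1 and Mlkl did not pass the filter.

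**Figure D4:**
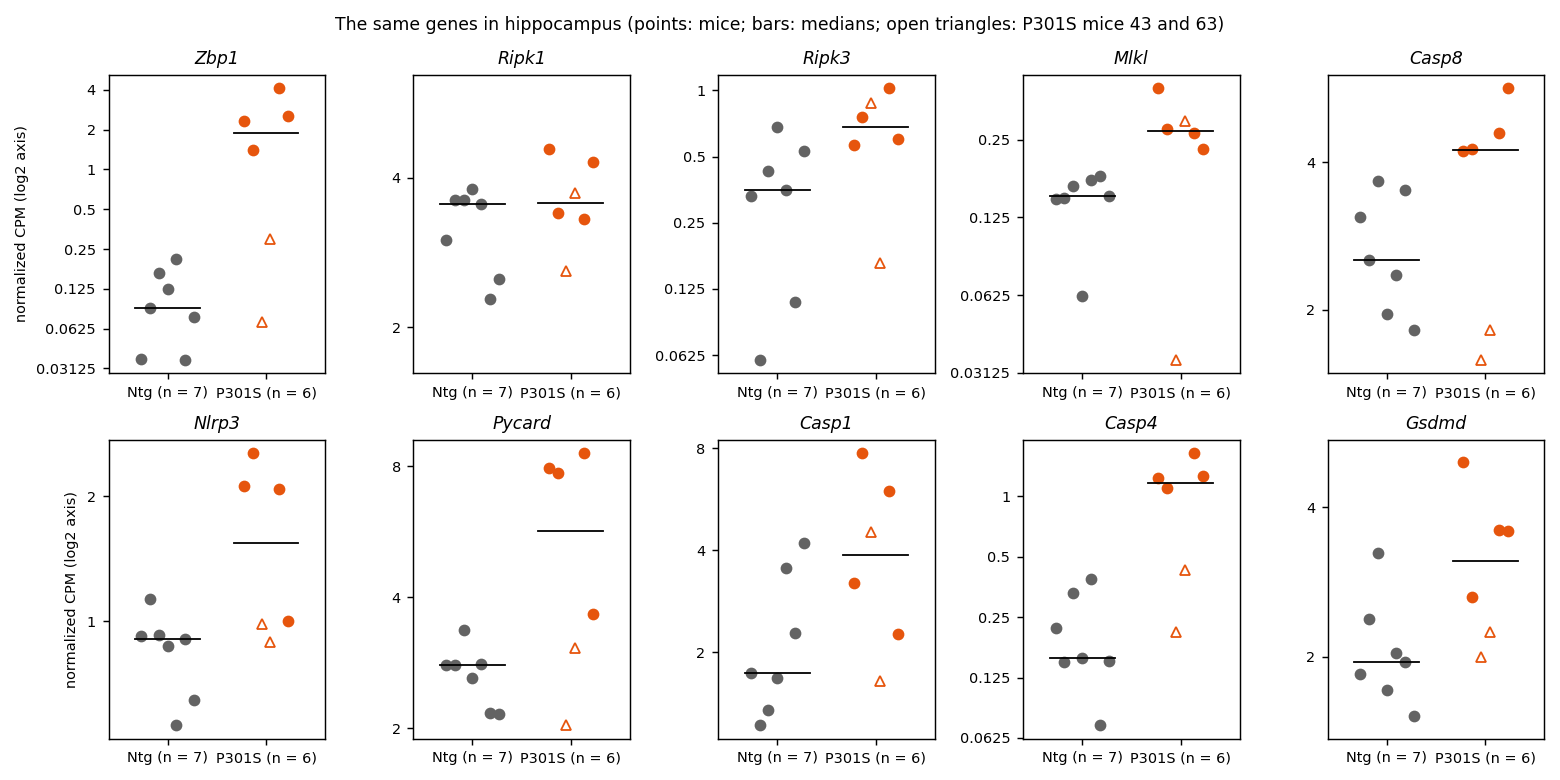
Normalized CPM (log2 axis) of the 10 members in each hippocampus of 7 Ntg and 6 P301S mice; bars are medians, and open triangles mark P301S mice 43 and 63, the 2 with the least pan-microglial marker RNA. Casp4 lies at 1.098 to 1.63 CPM in the other 4 P301S mice and at 0.0724 to 0.386 CPM in the Ntg mice.

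Casp4 was 0.0724 to 0.386 CPM in the Ntg mice (median 0.155, 2 to 11 counts) and 0.210 to 1.63 CPM in the P301S mice (median 1.16, 6 to 44 counts). In 5 of the 6 P301S mice it lay above every Ntg mouse, and mouse 43 lay among them. The log2 fold change was 2.20 (SE 0.45, edgeR adjusted p = 0.0321), and with each mouse left out in turn it ran from 1.99 to 2.404. The call was lost without Ntg mouse 35, 46, 61, 68 or 71 or P301S mouse 29, 36 or 65 (edgeR adjusted p = 0.0731 to 0.0890) and held without Ntg mouse 55 or P301S mouse 43, 63 or 77 (lowest edgeR adjusted p = 0.00265, without mouse 43). Without Ntg mouse 62 Casp4 did not pass the filter and was not tested.

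Zbp1 was at 1 to 6 counts in the Ntg mice and at 71, 41, 2, 9, 109 and 88 counts in P301S mice 29, 36, 43, 63, 65 and 77, which is 2.35, 1.41, 0.0701, 0.297, 4.13 and 2.52 CPM. It lay above every Ntg mouse in 5 of 6 P301S mice, with values spread over a wide range. An exact two-sided permutation test of the mean log2 CPM gave p = 0.00524, not adjusted for the 10 members tested so, where the smallest p that 7 against 6 mice allow is 5.83e-04. Without the filter on low counts, edgeR gave a log2 fold change of 4.02 (SE 0.69, adjusted p = 0.0123). Mlkl was at 2 to 5 counts in the Ntg and 1 to 12 counts in the P301S mice, and did not differ beyond the test (exact permutation p = 0.184).

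The remaining inflammasome genes had higher medians in P301S mice without a call. Pycard was 2.16 to 3.37 CPM in the Ntg mice (median 2.80) and 2.03 to 8.56 CPM in the P301S mice (median 5.69; log2 1.04, SE 0.30, edgeR adjusted p = 0.0914). Nlrp3 was 0.561 to 1.13 CPM (median 0.905) and 0.890 to 2.54 CPM (median 1.54; log2 0.90, SE 0.28, edgeR adjusted p = 0.113). Casp1 had a log2 fold change of 0.89 (SE 0.38, edgeR adjusted p = 0.262), and Gsdmd of 0.59 (SE 0.23, edgeR adjusted p = 0.208). In each of these 4 genes the groups overlapped. Pycard passed without P301S mouse 43 (edgeR adjusted p = 0.0119) or 63 (edgeR adjusted p = 0.0420), and Nlrp3 without P301S mouse 63 (edgeR adjusted p = 0.0494). Of the necroptosis genes tested, Ripk3 had a log2 fold change of 0.88 (SE 0.46, edgeR adjusted p = 0.378), Casp8 of 0.45 (SE 0.29, edgeR adjusted p = 0.496) and Ripk1 of 0.19 (SE 0.16, edgeR adjusted p = 0.631).

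The P301S mice were uneven, in the members and in microglial marker RNA. The number of members above every Ntg mouse was 8, 8, 2, 3, 9 and 7 in mice 29, 36, 43, 63, 65 and 77. The share of all genes above every Ntg mouse is not given here, so whether these counts are particular to the members was not tested. In the same order, pan-microglial markers summed to 1423, 1291, 303, 359, 1514 and 683 CPM, against 263 to 322 CPM in the Ntg mice. Casp1 and Ripk3 did not follow that order: in mouse 43 they were 4.52 and 0.877 CPM, above every Ntg mouse (at most 4.21 and 0.684 CPM), and in mice 29 and 77 they lay within the Ntg range (Casp1 3.21 and 2.26 CPM, Ripk3 0.562 and 0.602 CPM). Other members departed from it too. Ripk1 lay within the Ntg range in mice 36 and 65 (3.40 and 3.30 CPM, Ntg at most 3.79 CPM). So did Gsdmd in mouse 36 (2.64 CPM, Ntg at most 3.24 CPM) and Nlrp3 in mouse 77 (1.003 CPM, Ntg at most 1.13 CPM). Homeostatic microglia markers summed to 738, 744, 342, 387, 733 and 541 CPM, against 348 to 431 CPM. Of the pan-microglial markers 6 of 9 were called higher, with a median log2 fold change of 1.74, and none of the 8 homeostatic markers was called (median 0.24). Astrocyte markers summed to 3703 to 7389 CPM in P301S and 3628 to 4411 CPM in Ntg mice, with 1 of 6 called higher. T cell markers summed to 4.16, 2.81, 0.982, 1.71, 2.54 and 3.12 CPM in P301S mice 29, 36, 43, 63, 65 and 77 and to 1.02 to 2.36 CPM in the Ntg mice, and neither of the 2 tested of 5 was called. No Ntg mouse had more than 3 counts of Cd3e, Cd3d or Cd8a, and each T cell marker exceeded that in at least 1 P301S mouse. The part of T cells in the members' values was not tested. No marker of either microglial list was at or under 3 counts in every mouse of a group. With the mean of the pan-microglial markers as a covariate, Casp4 had a log2 fold change of 0.74 (edgeR adjusted p = 0.999), and with that of the homeostatic markers 1.29 (edgeR adjusted p = 0.257). No member was called in either fit, and the share of all genes called in these fits is not given here. The marker levels differed between the groups themselves, so these fits cannot separate a change of the members from one of the markers.

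**Figure D5:**
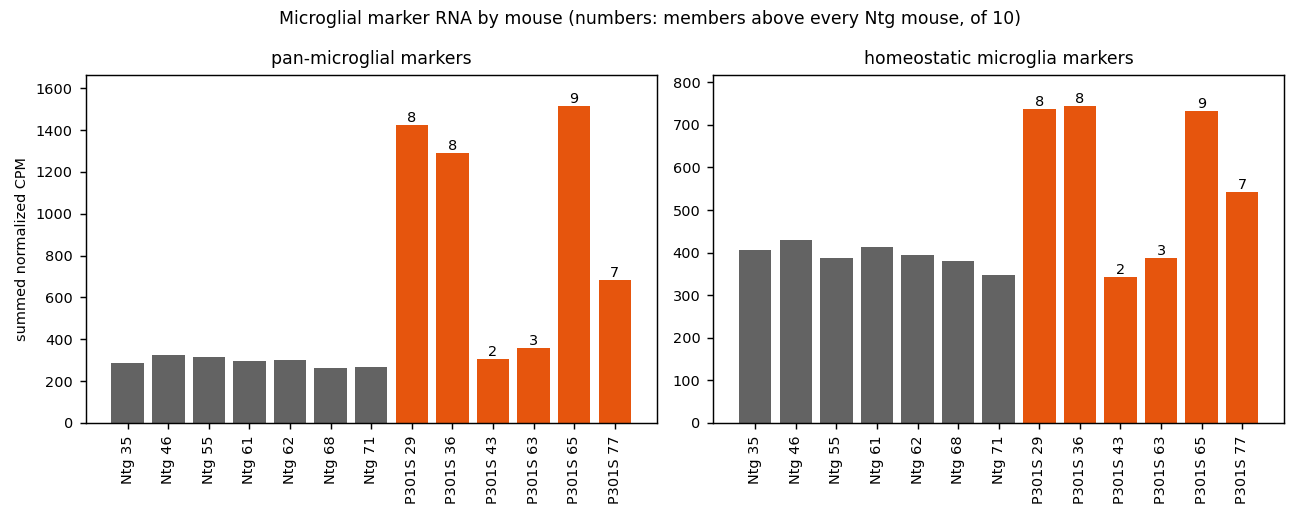
Summed normalized CPM of 9 pan-microglial and 8 homeostatic microglia markers in each hippocampus, Ntg in grey and P301S in orange; the number on a bar counts the members, of 10, that lay above every Ntg mouse. P301S mice 43 and 63, with 303 and 359 CPM of pan-microglial markers, have 2 and 3 such members, and the other 4 P301S mice have 7 to 9. The share of all genes that lay above every Ntg mouse is not given here.

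Of the other pathway genes, 4 were called in the hippocampus, all higher in P301S mice, where 1.39% of all genes were called higher and 0.122% lower. Nlrp1b, an inflammasome sensor whose reads may be shared with its paralogs, went from 0.216 ± 0.0927 CPM (SD, n = 7) to 0.663 ± 0.255 (SD, n = 6; log2 1.59, SE 0.33, edgeR adjusted p = 0.0328). Gbp2 rose by log2 1.67 (SE 0.36, edgeR adjusted p = 0.0387) and Gbp5 by 1.42 (SE 0.28, edgeR adjusted p = 0.0303). Birc3, an inhibitor of apoptosis that ubiquitinates Ripk1, rose by log2 0.80 (SE 0.17, edgeR adjusted p = 0.0326). In each of the 4 genes the groups overlapped. Gbp2 was 3.14 to 6.21 CPM in the Ntg and 2.80 to 19.9 CPM in the P301S mice, and Gbp5 2.05 to 2.32 and 2.21 to 8.91 CPM. Nlrp1b was at 3 to 13 counts in the Ntg mice. The 4 genes are 1 of 6 tested sensors, 2 of 8 partners and inhibitors and 1 of 18 tested genes of the TNF receptor complex. None of the 4 tested substrates and pore proteins and 9 other inputs to necroptosis was called.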

How the data were processed

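RNA was measured in 18 libraries of primary microglia and 13 hippocampi. The authors deposited 2 tables of raw gene counts, 1 per tissue, from 3′ mRNA libraries. The submitters' processing notes name the build GRCm38 and the tools edgeR and limma; the aligner and its version are not given in the sources used here. The 2 tables were fitted separately. Counts were fitted with edgeR 4.0.16 in R 4.3.3 (filterByExpr, TMM scaling, quasi-likelihood test), with all 6 microglial groups in 1 model and with genotype alone in hippocampus. p-values were adjusted over all genes tested, with a threshold of 0.05 and no minimum fold. DESeq2 1.42.0, RLE scaling, no filter, a minimum fold, a replicate block, sex or marker covariates and each library left out were alternatives. The scripts were tested on simulated data. Single hippocampal genes used an exact permutation test over mice.

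Gene positions come from GENCODE vM21 (GRCm38). The members and lists were chosen with earlier results of these data known. The text names all 10 members, up to 3 genes per pathway list with the smallest adjusted p after tau fibrils or HT-DNA in Cgas+/+ cells, those of the lists called in hippocampus, and the 3 genes closest to Zbp1 and to Nlrp3. The results of 1 further list are not reported here. Hippocampal RNA is described in the labels as extracted and prepared with the same kits as the microglial RNA, while the methods of the study name another extraction kit for it. Same-numbered microglial libraries of different groups had correlated deviations of -0.085 to 0.0823 over 45 pairs, so replicate numbers were not taken as pairs. Replicates of a group all differed beyond sampling noise (chi-square per degree of freedom at least 2.32). Counts carry no molecular identifiers in the sources used here, so PCR copies cannot be told from molecules.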

Additional observations from a re-analysis of the deposited data

Results flagged for a closer look

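In the hippocampus, 1 of the 20 sets of values tested (10 members in 2 groups) had a value far from the rest of its group: Mlkl in Ntg mouse 61 was at 0.0622 CPM (2 counts), and the next lowest mouse was at 0.148 CPM (4 counts). At such low counts the gap is only a few reads. Chance marks about 1 in 20 such groups.

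The response to tau fibrils differed between genotypes by the interaction test for Zbp1 (2.51 on the log2 scale, larger in Cgas-/- cells), Casp8 (-0.43) and Casp1 (-0.41). The response to HT-DNA was smaller in Cgas-/- cells for Zbp1 (-1.96), Mlkl (-2.70), Casp8 (-1.31), Nlrp3 (-0.69), Casp1 (-1.06), Casp4 (-1.76) and Gsdmd (-0.97). For Zbp1 the 2 interactions had opposite signs.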

How the results depend on the processing

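Of the microglial comparisons, the counts of called members under DESeq2, RLE scaling, the compared groups alone and the replicate block stayed within 1.5 times the reported ones. With the replicate block the counts were 7, 9 and 5 (tau, HT-DNA and tau against HT-DNA in Cgas+/+ cells), 6 and 1 (tau and HT-DNA in Cgas-/- cells), 7, 8 and 7 (genotype with vehicle, tau and HT-DNA) and 3 and 7 (tau and HT-DNA interactions), as reported. Deviations of libraries with the same number had correlations of -0.085 to 0.0823 (45 pairs), and those with different numbers -0.0797 to 0.104 (90 pairs). No paired analysis was possible in hippocampus because the mice carry no shared numbers.

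Requiring also a log2 fold change beyond 1 left 4 members called after tau in Cgas+/+ and 3 in Cgas-/- cells, 0 after HT-DNA in Cgas-/- cells, 0 between tau and HT-DNA, 2 between genotypes with vehicle, 2 after tau and 1 in the tau interaction. Without the filter on low counts the tau interaction had 5 called members (Nlrp3 and Casp4 added) and the hippocampus 2. In hippocampus DESeq2 called 4, and either microglial marker mean as a covariate left 0. The share of all genes called with a covariate is not given here.

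With 1 library left out the number of called members ran from 3 to 6 in the tau interaction (6 without Cgas+/+ tau replicate 2), from 0 to 1 for HT-DNA in Cgas-/- cells and from 0 to 3 in hippocampus. Among the members' values, 759 kept direction and call, 19 lost the call, 14 gained one and 31 changed sign. No value was called both in the report and with its sign changed. Their ranges with 1 library left out were -0.51 to 0.0301 for Mlkl and -0.0572 to 0.0433 for Pycard in the tau interaction, and -0.0382 to 0.0442 for Ripk1 and -0.0771 to 0.0244 for Pycard in the HT-DNA interaction. Between tau and HT-DNA they were -0.00122 to 0.0473 for Ripk1 and -0.0743 to 0.18 for Nlrp3, the latter called at its highest. For genotype they were -0.0671 to 0.18 for Ripk3 after HT-DNA and -0.0329 to 0.0280 for Ripk1 after tau. In Cgas-/- cells they were -0.0481 to 0.0127 for Ripk1 and -0.00143 to 0.0857 for Ripk3 after tau, and -0.34 to 0.16 for Zbp1, -0.0377 to 0.0219 for Casp8, -0.0894 to 0.12 for Casp4 and -0.0023 to 0.28 for Mlkl after HT-DNA.

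Sign changes under other settings were also among uncalled values. Ripk1 between tau and HT-DNA was -0.00897 with DESeq2 and -0.0095 with RLE scaling, Pycard in the tau interaction -0.00457 and -0.00495, and Ripk1 in the HT-DNA interaction -0.0152, -0.016 and, with the compared groups alone, -0.0394. Without the filter Ripk1 differed between genotypes after tau by 0.0111. In hippocampus Casp8 was -0.10 with the homeostatic marker mean as covariate, and with the pan-microglial mean Casp8 was -0.43, Pycard -0.27, Nlrp3 -0.0382 and Ripk1 -0.00588. The cause was not tested.

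Depth limits Zbp1 and Mlkl in hippocampus, at 1 to 6 and 2 to 5 counts in the Ntg mice, and Zbp1 in Cgas-/- vehicle libraries, at 34 to 70 counts.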

Other observations

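A pair of genes of the inflammasome lists went against most members in the comparison of genotypes, and they were chosen after their values were seen. Il1a, the precursor of interleukin-1α, was 10.4 to 14.5 CPM in the Cgas+/+ and 37.8 to 38.8 CPM in the Cgas-/- vehicle libraries (log2 1.603, SE 0.10, edgeR adjusted p = 9.90e-14). It rose after tau fibrils in both genotypes, by log2 1.36 with cGAS and 0.48 without (interaction -0.88, SE 0.13, edgeR adjusted p = 5.30e-05). Serpinb1a, an inhibitor of serine proteases, was at 0 to 3 counts in the 9 Cgas+/+ libraries and at 13 to 39 counts in the 9 Cgas-/- libraries, with no overlap.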
